A study of Homo sapiens with 6 samples.

Results

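A set of 10 nuclear genes for the synthesis, stabilisation and decay of mitochondrial RNA was followed in HCT-8 cells, an established human line from a colorectal adenocarcinoma. They were chosen by gene symbol from the deposited count table, in which all 10 were found among 58735 genes: POLRMT, TFAM, TFB1M, TFB2M and TEFM for transcription, LRPPRC and SLIRP for stability, PNPT1 and SUPV3L1 for decay, and MTPAP for polyadenylation. RNA was sequenced from 3 libraries of cells treated with the pyrimidine analogue 5-fluorouracil (5-FU), which inhibits thymidylate synthase and enters both RNA and DNA, at its 10% inhibitory concentration, and from 3 libraries of untreated control cells. The sources used here give neither the molar concentration nor the length of treatment, and they do not say whether the libraries of a group came from separate cultures or whether poly(A) RNA was selected. The p-values therefore measure only the spread between these libraries, which may be technical. Every library comes from the same cell line.

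The mitochondrial genome is a small circle that is read from both strands into long precursor RNAs, from which mRNAs, rRNAs and tRNAs are cut. POLRMT is the single RNA polymerase of the organelle. TFAM bends and packages the mitochondrial DNA, TFB2M opens the promoter and TEFM lets the polymerase run on. Once made, the mRNAs are held by a complex of LRPPRC and SLIRP and tailed by the poly(A) polymerase MTPAP, and they are degraded by the exoribonuclease PNPT1 (PNPase) together with the helicase SUPV3L1 (SUV3). All of these proteins are encoded in the nucleus and imported.

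Gene counts summed to between 18459939 and 20613228 in the 5-FU libraries and to between 21659252 and 23495607 in the control libraries. Genes with any count numbered 32977 to 33830 in the 5-FU libraries, against 27874 to 29144 in the control libraries, though the 5-FU totals were smaller. The part of this difference in the results was not tested. Among 12 epithelial and colorectal marker genes, summed normalised counts ranged from 3571 to 4532 CPM (counts scaled to the library's effective size) in 5-FU libraries and from 4837 to 6664 CPM in control libraries, and the most abundant, the keratin KRT8, averaged 1905 ± 403 CPM in 5-FU and 2828 ± 517 CPM in control libraries (SD, n = 3 each). Of the 11 epithelial markers tested, 5 were lower, 2 (KRT20 and CEACAM5, at low levels) were higher and 4 did not pass, with log2 fold changes from -2.11 to 3.34. The shares over all tested genes were 33.9% lower and 36.3% higher. Summed markers of fibroblasts ranged from 34.3 to 64.6 CPM in 5-FU and from 15.7 to 20.2 CPM in control libraries, with COL1A1 the most abundant (42.4 CPM in 5-FU and 15.2 CPM in control libraries), while DCN and LUM had no count in any library. Markers of immune cells summed to 11.3 to 12.3 CPM in 5-FU and 10.99 to 11.8 CPM in control libraries, led by CD14 (6.10 CPM in 5-FU and 6.64 CPM in control libraries on average). Those of endothelial cells summed to 3.88 to 5.55 CPM in 5-FU and 2.37 to 3.25 CPM in control libraries, led by PECAM1. The part of these marker levels in the results was not tested. In bulk RNA, fewer cells of a type and less RNA per cell cannot be told apart.

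All 10 factors fell after 5-FU while the RNA of the genome they serve rose. Falls and rises here are relative to the rest of each library, and amounts per cell were not measured. Each of the 10 had every 5-FU library below every control library and an adjusted p under 0.05 in the quasi-likelihood test of edgeR. Over the whole table, 70.2% of 19771 tested genes had such a p, 33.9% lower and 36.3% higher, and for 35.9% all 5-FU libraries lay below all control libraries. Among tested protein-coding genes, 43.6% were called lower and 27.8% higher. The split over all genes, 7171 higher and 6706 lower, was 9602 and 4614 with upper-quartile factors. On FPKM with limma and a pseudocount of 1 it was 4320 and 7136 among 16093 filtered genes, and 6926 and 6902 with no filter. The factors are moderately to strongly expressed, and lower calls were more frequent there: 60.3% in the quintile of highest mean expression, which holds POLRMT, LRPPRC and PNPT1, 53.5% in the next quintile, which holds TFAM, TFB2M, SLIRP, SUPV3L1 and MTPAP, and 38.2% in the middle quintile, which holds TFB1M and TEFM. The median log2 fold change of the 10 was -0.92, against 0.09 over all tested genes and -0.53, -0.39 and -0.10 in those quintiles, in the same order. In the quintile of lowest expression the median was 1.20, and in the one above it 0.78, so the difference between groups went with expression level across the table. With upper-quartile factors 8 of the 10 passed, and with genes of a mean count of at least 50, 9 of the 10. Falls ranged from 1.39-fold for POLRMT to 2.83-fold for TFAM.

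**Figure D1:**
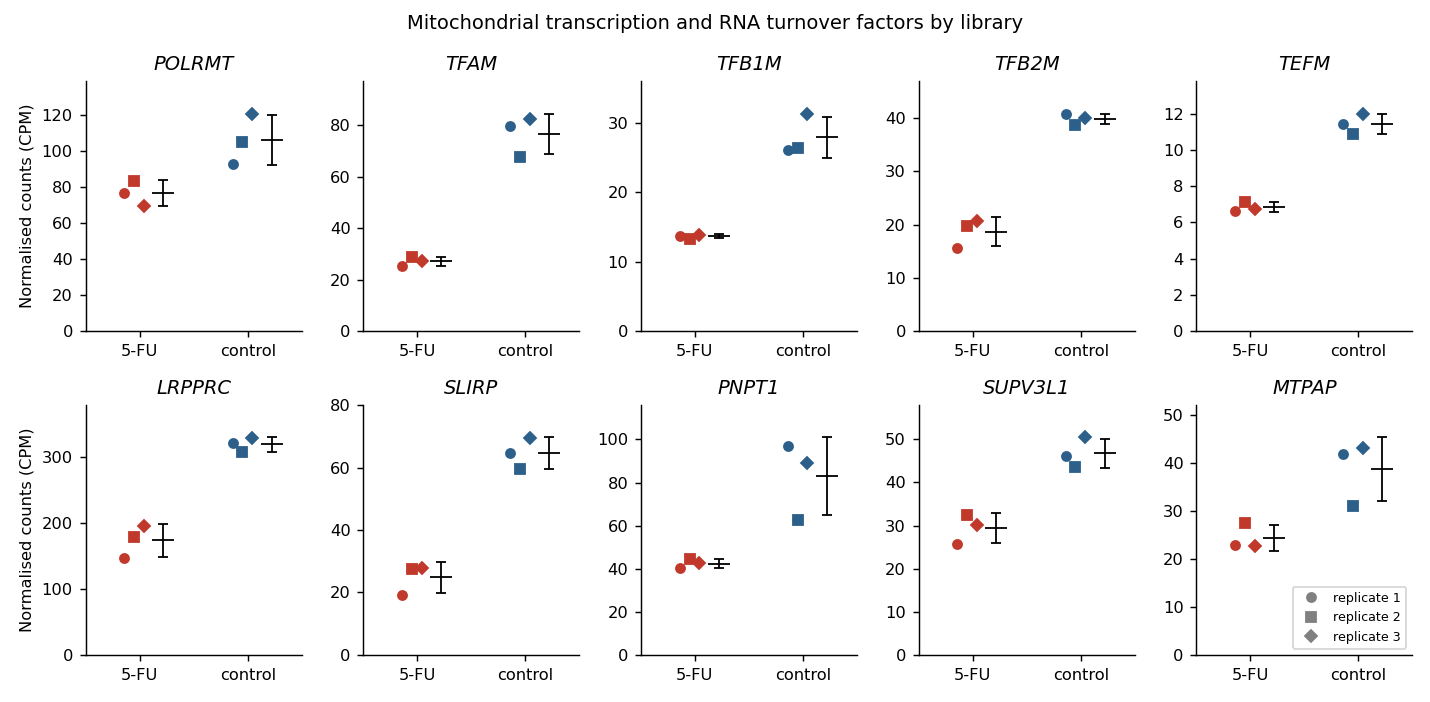
Normalised counts (CPM, linear axes from 0) of the 10 factors in each 5-FU library (red, left) and each control library (blue, right), with marker shapes for the replicate number and a bar for mean ± SD (n = 3 each). Every red point lies below every blue point of its panel, by a wide margin for TFAM (25.2 to 28.8 CPM in 5-FU, 67.8 to 82.4 CPM in control) and a narrow one for POLRMT and MTPAP.

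Among the initiation factors, TFAM, the packaging and promoter-bending protein of mitochondrial DNA, had the largest fall of the 10. Its level was 25.2, 28.8 and 27.4 CPM in the 5-FU libraries, against 79.8, 67.8 and 82.4 CPM in the control libraries. The lowest control library stood well above the highest 5-FU library. Its log2 fold change, -1.50 (SE 0.12), had an edgeR adjusted p of 2.58e-06, and 7.22% of tested genes had a lower one. TFAM (ENSG00000108064) lies on chromosome 10 at 58385022 to 58399221 on the plus strand of GRCh38, and none of its exonic bases is shared with another annotated gene.

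TFB2M, the factor that melts the promoter DNA for the polymerase, had 15.6, 19.7 and 20.7 CPM in 5-FU libraries, against 40.7, 38.7 and 40.0 CPM in control libraries. The control libraries were nearly level, and 5-FU replicate 1 was the lowest of all (log2 fold change -1.09, SE 0.14, edgeR adjusted p = 3.02e-05). Its relative TFB1M, which in mammals methylates the small mitochondrial rRNA, had 13.8, 13.4 and 13.9 CPM in 5-FU libraries, against 26.1, 26.3 and 31.3 CPM in control libraries. Here the 5-FU libraries were the level ones, with a coefficient of variation of 1.99%, and control replicate 3 stood highest (log2 fold change -1.03, SE 0.13, edgeR adjusted p = 4.14e-05). TFB2M (ENSG00000162851) lies on chromosome 1 at 246540560 to 246566324 and TFB1M (ENSG00000029639) on chromosome 6 at 155257509 to 155314493, both on the minus strand. Exons of TIAM2 on the opposite strand cover 7.86% of the exonic bases of TFB1M. The library kit as named does not mark strand, so reads there cannot be told apart.

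POLRMT, the polymerase itself, fell least. It had 76.8, 83.5 and 69.2 CPM in 5-FU libraries, against 92.7, 105 and 121 CPM in control libraries, so that 5-FU replicate 2 came close to control replicate 1. In the expression quintile that holds POLRMT the median log2 fold change was -0.53. That of POLRMT itself, -0.47 (SE 0.13), had an edgeR adjusted p of 0.00669, and 31.7% of tested genes had a lower one. With upper-quartile scaling it was -0.11 (edgeR adjusted p = 0.435) and with genes of a mean count of at least 50 it was -0.22 (edgeR adjusted p = 0.141), so the call on POLRMT is lost under both. TEFM, the elongation factor, had 6.62, 7.15 and 6.72 CPM in 5-FU libraries, against 11.4, 10.9 and 11.99 CPM in control libraries. The spread within both groups was small beside the gap (log2 fold change -0.74, SE 0.16, edgeR adjusted p = 0.00124). POLRMT (ENSG00000099821) lies on chromosome 19 at 617224 to 633604 and TEFM (ENSG00000172171) on chromosome 17 at 30897336 to 30906820, both on the minus strand. Exons of an antisense RNA and of ADAP2, on the opposite strand, cover 26.1% of the exonic bases of TEFM, so its reads cannot be told apart in those stretches either.

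The promoters of these genes are shown because all 5 genes of transcription fell and because NRF1 and the ETS factor GABP are known activators of TFAM, TFB1M and TFB2M. In the 250 bases before each start in the RefSeq table (GRCh38.p14), which held all 10 genes, CGCNTGCGC on either strand, the core of the NRF1 motif, was found for 5 of 10 genes, POLRMT, TFAM, TFB1M, TFB2M and MTPAP, against 6.56% of 35116 promoters and 10.1% of 17087 promoters of tested genes. CCGGAAG on either strand, an ETS core, was found for POLRMT, TFB1M and SLIRP, against 8.52% of all promoters and 12.8% of those of tested genes. LRPPRC, PNPT1, SUPV3L1 and TEFM held neither word in this window. Only these exact words were searched, so variants were not counted, and a promoter without a match may still hold a site. The letters were settled after the promoters had been read, and the NRF1 core is nearly its own reverse complement, so that forward and reverse matches overlap. The 5 promoters with an NRF1 core follow, 5′ to 3′ on the gene's strand, with matches to either word in capitals.
POLRMT (chr19:633538-633787, minus strand): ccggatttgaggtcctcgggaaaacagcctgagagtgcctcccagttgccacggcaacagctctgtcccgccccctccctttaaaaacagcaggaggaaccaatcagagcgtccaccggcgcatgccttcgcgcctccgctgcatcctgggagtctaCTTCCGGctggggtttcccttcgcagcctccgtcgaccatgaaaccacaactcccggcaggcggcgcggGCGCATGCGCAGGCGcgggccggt
TFAM (chr10:58385160-58385409, plus strand): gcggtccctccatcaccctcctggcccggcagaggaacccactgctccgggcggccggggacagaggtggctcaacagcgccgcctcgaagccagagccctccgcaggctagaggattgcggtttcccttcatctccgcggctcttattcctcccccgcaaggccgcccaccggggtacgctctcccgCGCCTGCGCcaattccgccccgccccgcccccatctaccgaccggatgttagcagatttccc
TFB1M (chr6:155314485-155314734, minus strand): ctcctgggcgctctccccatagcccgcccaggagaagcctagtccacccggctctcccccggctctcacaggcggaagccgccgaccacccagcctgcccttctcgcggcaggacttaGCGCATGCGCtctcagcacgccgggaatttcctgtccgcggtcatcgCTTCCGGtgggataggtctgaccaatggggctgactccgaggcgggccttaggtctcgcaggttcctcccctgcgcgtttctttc
TFB2M (chr1:246566262-246566511, minus strand): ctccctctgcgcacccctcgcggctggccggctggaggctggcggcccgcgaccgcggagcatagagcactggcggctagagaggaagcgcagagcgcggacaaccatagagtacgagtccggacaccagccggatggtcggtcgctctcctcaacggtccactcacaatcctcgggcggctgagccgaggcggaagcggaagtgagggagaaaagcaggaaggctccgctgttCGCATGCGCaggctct
MTPAP (chr10:30349279-30349528, minus strand): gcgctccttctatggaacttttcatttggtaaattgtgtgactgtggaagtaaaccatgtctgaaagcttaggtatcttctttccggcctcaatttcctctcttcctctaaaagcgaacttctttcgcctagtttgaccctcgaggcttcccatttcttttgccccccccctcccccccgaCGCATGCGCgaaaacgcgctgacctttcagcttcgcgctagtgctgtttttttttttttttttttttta

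GENCODE places these gene starts further upstream than RefSeq does, so that the windows of TFAM and MTPAP lie inside the GENCODE gene and the other 3 overlap its end. In the POLRMT promoter the matches to the NRF1 core overlap in one run that begins 24 bases before the start, and the ETS core begins 93 bases before it. The run of TFB1M begins 132 bases, that of TFAM 62 bases, that of MTPAP 69 bases and that of TFB2M 16 bases before the start. A match of letters is no measurement of binding. The transcript of NRF1 itself had 15.7 ± 3.29 CPM in 5-FU and 20.1 ± 2.72 CPM in control libraries (SD, n = 3 each), a difference that did not pass (log2 fold change -0.36, SE 0.17, edgeR adjusted p = 0.0844). GABPA, the DNA-binding subunit of GABP, fell to 26.2 ± 2.85 CPM in 5-FU libraries, against 44.2 ± 3.77 CPM in control libraries (log2 fold change -0.76, SE 0.13). NRF1 and GABPA were named here after their values were seen.

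LRPPRC and SLIRP, the partners that bind and stabilise mitochondrial mRNAs, both fell. LRPPRC had 147, 178 and 196 CPM in 5-FU libraries, against 322, 307 and 329 CPM in control libraries. SLIRP had 19.2, 27.5 and 28.0 CPM in 5-FU libraries, against 64.8, 59.6 and 69.6 CPM in control libraries. In both genes 5-FU replicate 1 was the lowest library. LRPPRC changed by -0.88 on the log2 scale (SE 0.13, edgeR adjusted p = 1.38e-04) and SLIRP by -1.38 (SE 0.15, edgeR adjusted p = 1.45e-05). LRPPRC (ENSG00000138095) lies on chromosome 2 at 43886508 to 43996005 on the minus strand and shares no exonic base with another gene. SLIRP (ENSG00000119705) lies on chromosome 14 at 77708071 to 77761104 on the plus strand, where exons of C14orf178 on the same strand cover 10.5% and exons of SNW1 on the opposite strand 4.48% of its exonic bases.

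Both parts of the mitochondrial degradosome fell. PNPT1, the 3′ to 5′ exoribonuclease, had 40.2, 44.5 and 42.5 CPM in 5-FU libraries, against 97.0, 62.7 and 89.2 CPM in control libraries. The 5-FU libraries were close together, while control replicate 2 stood well below the other control libraries (log2 fold change -0.97, SE 0.16, edgeR adjusted p = 1.95e-04). SUPV3L1, the helicase that unwinds RNA for it, had 25.8, 32.5 and 30.0 CPM in 5-FU libraries, against 46.1, 43.7 and 50.4 CPM in control libraries (log2 fold change -0.67, SE 0.13, edgeR adjusted p = 6.74e-04). PNPT1 (ENSG00000138035) lies on chromosome 2 at 55634265 to 55693910 on the minus strand and SUPV3L1 (ENSG00000156502) on chromosome 10 at 69180232 to 69209099 on the plus strand, neither with shared exonic bases. MTPAP, which adds the poly(A) tails, had 22.8, 27.5 and 22.6 CPM in 5-FU libraries, against 41.8, 31.0 and 43.1 CPM in control libraries. Control replicate 2 was again the lowest control library and lay only a little above 5-FU replicate 2. The log2 fold change of MTPAP was -0.67 (SE 0.15, edgeR adjusted p = 0.00215), and with upper-quartile scaling it was -0.31 and its call was lost (edgeR adjusted p = 0.0685). MTPAP (ENSG00000107951) lies on chromosome 10 at 30309801 to 30374448 on the minus strand. Exons of the pseudogene GOLGA2P6 on the same strand cover 19.4% and exons of an antisense RNA 13.4% of its exonic bases, so its value is uncertain.

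Libraries of a group were ordered alike for many of the factors. Within the 5-FU group, replicate 1 was the lowest library for 7 of the 10 factors and the highest for none, and it also had the largest share of mitochondrial counts (28.5%, against 25.5% and 26.2% in replicates 2 and 3). Within the control group, replicate 2 was lowest for 8 of 10 and replicate 3 highest for 8 of 10. The same count was not made over all tested genes, so this order cannot be called particular to the factors. Whether it goes with the mitochondrial share was not tested. The summed level of the 10 was 393, 463 and 457 CPM in the 5-FU libraries, against 822, 753 and 867 CPM in the control libraries. Without 5-FU replicate 1, all 10 still passed and the median log2 fold change was -0.83; without control replicate 2 it was -1.02.

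Levels between genes were compared per length, in FPKM (fragments per kilobase of exon, scaled by library, as the authors deposited them). The length used is that of all annotated exons of a gene merged, 2631 bases over 12 transcripts for SLIRP. It can exceed that of the transcripts made, by an amount that differs between genes, so the order of genes is uncertain. LRPPRC was the most abundant in both groups, at 16.8 ± 2.86 FPKM in 5-FU and 34.0 ± 1.69 FPKM in control libraries, and TEFM the least, at 1.99 ± 0.132 FPKM in 5-FU and 3.68 ± 0.232 FPKM in control libraries (SD, n = 3 each). In 5-FU libraries the order was LRPPRC, POLRMT (14.0 FPKM), TFB2M (9.51), SLIRP (8.91), PNPT1 (7.76), SUPV3L1 (6.46), TFB1M (4.69), TFAM (4.55), MTPAP (2.72) and TEFM, all as mean FPKM. In control libraries it was LRPPRC, SLIRP (25.5 FPKM), TFB2M (22.4), POLRMT (21.5), PNPT1 (16.8), TFAM (14.2), SUPV3L1 (11.3), TFB1M (10.6), MTPAP (4.79) and TEFM. POLRMT was the second in 5-FU libraries and the fourth in control libraries, where its range overlapped those of SLIRP, TFB2M and PNPT1. SLIRP was the fourth in 5-FU and the second in control libraries, and TFAM the eighth in 5-FU and the sixth in control libraries. In 5-FU libraries the ranges of neighbours were separate between POLRMT and TFB2M, between SUPV3L1 and TFB1M, between TFAM and MTPAP and between MTPAP and TEFM; the other neighbours overlapped. In control libraries they were separate between LRPPRC and SLIRP and between TFB1M and MTPAP, and overlapped elsewhere.

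The ratio of a pair of transcripts within a library does not depend on how libraries are scaled. Its level depends on the gene lengths used, which are the same in both groups. POLRMT stood at 3.33, 3.17 and 2.77 times the FPKM of TFAM in 5-FU libraries, against 1.27, 1.70 and 1.60 times in control libraries, with no overlap. LRPPRC stood at 2.07, 1.75 and 1.89 times SLIRP in 5-FU libraries, against 1.34, 1.39 and 1.27 times in control libraries, again with no overlap. By contrast PNPT1 stood at 1.30, 1.14 and 1.18 times SUPV3L1 in 5-FU libraries, against 1.76, 1.20 and 1.48 times in control libraries, where the groups overlapped at control replicate 2. TFB2M stood at 1.68, 2.18 and 2.21 times TFB1M in 5-FU libraries, against 2.31, 2.18 and 1.89 times in control libraries, with ranges that overlapped in part. The pairs of the packaging protein with the polymerase and of the RNA-binding partners had different proportions in the groups, and the degradosome pair and the TFB pair overlapped between them. Of 3 further pairs, none overlapped: POLRMT over TFB2M averaged 1.504 ± 0.288 in 5-FU and 0.962 ± 0.134 in control libraries, POLRMT over TEFM 7.04 ± 0.491 in 5-FU and 5.84 ± 0.637 in control libraries, and PNPT1 over MTPAP 2.86 ± 0.214 in 5-FU and 3.49 ± 0.261 in control libraries (SD, n = 3 each). These 7 ratios are given without a test, as the genes were chosen with results known. Of all tested genes, 35.9% had every 5-FU library below every control library and 38.4% had every one above. The same count was not made over other pairs of genes, so a ratio without overlap cannot be called particular to these pairs.

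**Figure D2:**
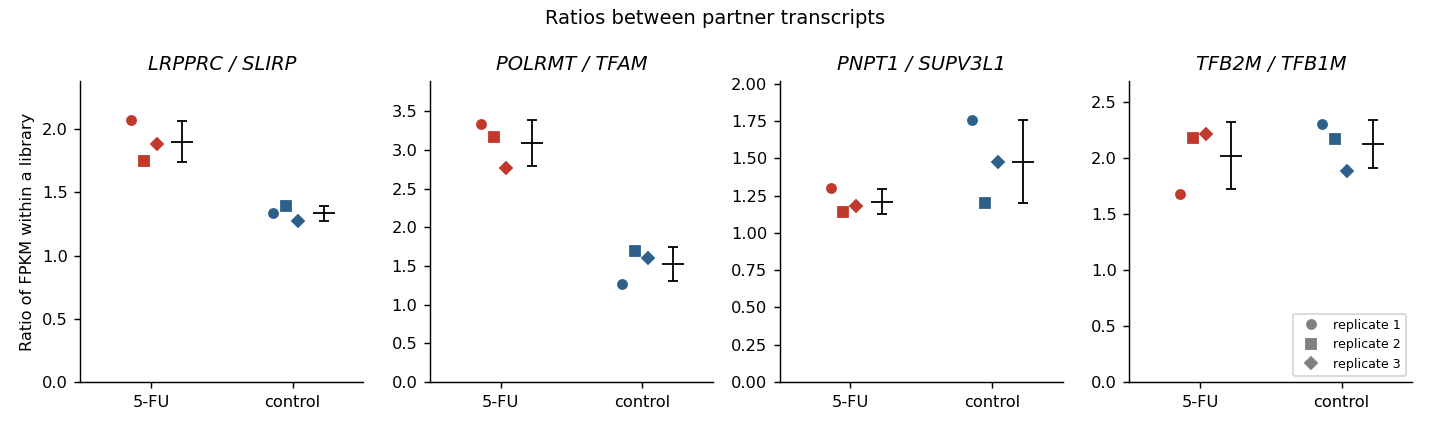
Ratio of the FPKM of one transcript to that of another within each library, for 4 pairs (linear axes from 0), with 5-FU libraries in red on the left, control libraries in blue on the right, marker shapes for the replicate number and bars for mean ± SD (n = 3 each). LRPPRC over SLIRP (1.90 in 5-FU, 1.33 in control on average) and POLRMT over TFAM (3.09 in 5-FU, 1.52 in control) do not overlap between groups, while PNPT1 over SUPV3L1 and TFB2M over TFB1M do.

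Set beside the factors, mitochondrially encoded RNA took 28.5%, 25.5% and 26.2% of counts in 5-FU libraries, against 4.85%, 4.88% and 4.66% in control libraries (26.7% ± 1.59 and 4.80% ± 0.120, SD, n = 3 each; exact two-sided permutation p = 0.1, the smallest that 3 against 3 can give). All 13 mitochondrial mRNAs rose, with log2 fold changes from 1.55 for MT-ATP8 to 2.93 for MT-ND1 and a median of 2.26. In all 13 every 5-FU library lay above every control library, which held for 38.4% of all tested genes. On FPKM with no filter none of the 13 passed limma, at a median of 2.11. MT-ND1, a subunit of complex I, had 10615, 10370.3 and 10275 CPM in 5-FU libraries, against 1599.6, 1146 and 1362 CPM in control libraries. The cytochrome oxidase mRNA MT-CO1 rose by 2.53 (SE 0.25), MT-CO3 by 2.31 and MT-CO2 by 1.76 on the log2 scale. Of the other complex I mRNAs, MT-ND3 rose by 2.69, MT-ND2 by 2.49, MT-ND5 by 2.26, MT-ND4L by 2.06 and MT-ND4 by 1.94, and MT-CYB of complex III rose by 2.13. The ATP synthase mRNAs MT-ATP6 (1.63) and MT-ATP8 rose least; they overlap on the genome, as do MT-ND4L and MT-ND4, so reads in the shared bases cannot be assigned.

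Both rRNAs rose, with log2 fold changes above those of all 13 mRNAs. Whether poly(A) RNA was selected is not given in the sources used here, so these values may be of all rRNA or tRNA molecules or only of tailed ones. MT-RNR2, the large rRNA, had 26748, 18687 and 19563 CPM in 5-FU libraries, against 1704, 1497 and 1399 CPM in control libraries (log2 fold change 3.82, SE 0.24). MT-RNR1, the small rRNA, had 3826, 1909 and 2820.2 CPM in 5-FU libraries, against 284, 192 and 213 CPM in control libraries (log2 fold change 3.63, SE 0.27), with a wide spread among 5-FU libraries. Transcripts annotated on the minus strand include MT-ND6, which rose by 2.57 on the log2 scale (SE 0.17), and the tRNA genes there: all 6 that could be tested rose, at a median of 3.79, while of 14 tRNA genes on the plus strand 10 rose and 4 (MT-TR, MT-TG, MT-TL2 and MT-TS2) did not pass, at a median of 1.28. Over all tested genes 36.3% were higher. Several of these tRNA genes rest on few reads. Counts in control libraries were 2, 2 and 1 for MT-TW on the plus strand and 2, 0 and 4 for MT-TS1 on the minus strand, against 1847, 1818 and 1512 for MT-TC. The medians by strand are therefore uncertain. Genes on the minus strand made up 3.56% ± 0.120 of mitochondrial counts in 5-FU and 2.66% ± 0.140 in control libraries (exact two-sided permutation p = 0.1). The library kit as named does not mark strand, so reads of a minus-strand gene and of the precursor opposite to it cannot be told apart.

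**Figure D3:**
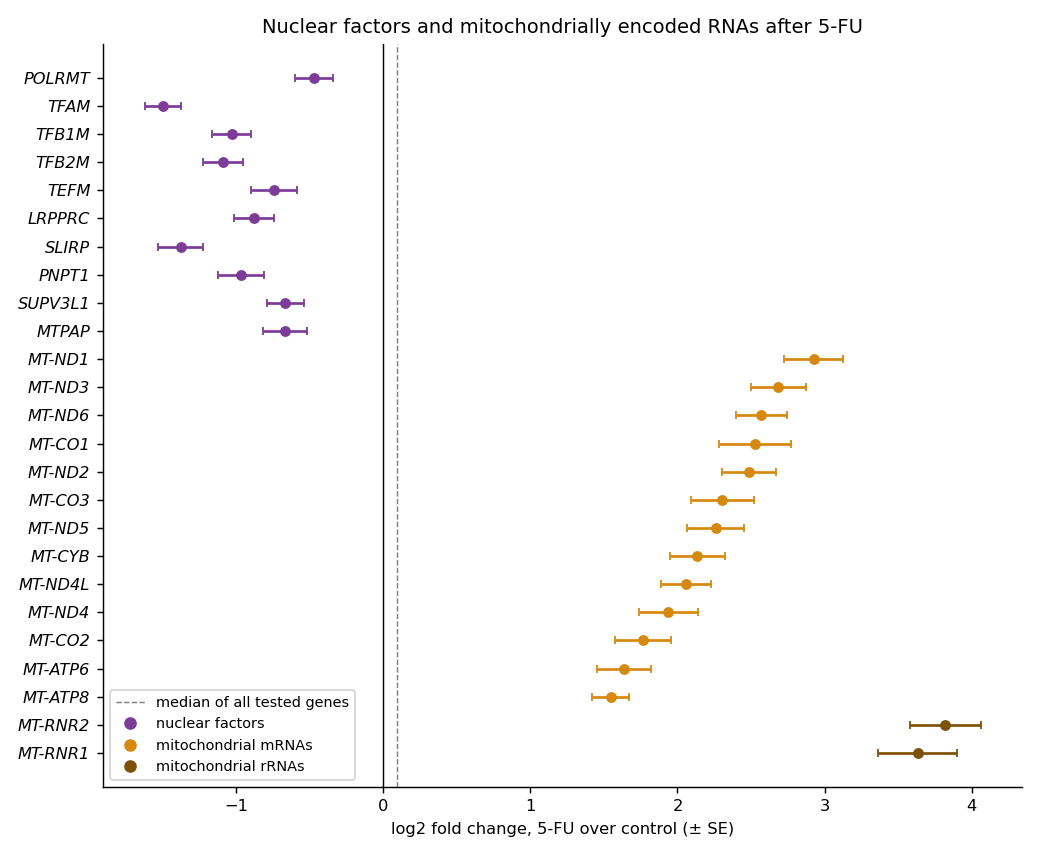
log2 fold change of 5-FU over control (points, with SE as bars) for the 10 nuclear factors (purple), the 13 mitochondrial mRNAs (orange) and the 2 mitochondrial rRNAs (brown), with the median of all tested genes (0.09) dashed. The factors lie between -1.50 and -0.47 and the mitochondrial RNAs between 1.55 and 3.82, with no overlap.

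Per unit of each factor's mRNA the difference is larger by construction, as a sum that rose is divided by a level that fell. These quotients restate both changes and are no further result. The summed FPKM of the 13 mitochondrial mRNAs for each FPKM of TFAM averaged 52039 ± 5285 in 5-FU and 3928 ± 396 in control libraries (SD, n = 3 each), which is 13.2 times as much. The same quantity was 12.6 times as high in 5-FU libraries for SLIRP, 10.2 times for TFB2M, 9.53 times for TFB1M, 8.91 times for PNPT1 and 8.77 times for LRPPRC. It was 7.86 times for TEFM, 7.52 times for SUPV3L1, 7.39 times for MTPAP and 6.48 times for POLRMT. The factors are measured here as mRNA, and their protein levels were not measured. Because mitochondrial RNA takes up counts, the factors were also fitted with all mitochondrial genes left out of the table: all 10 still passed, at a median log2 fold change of -0.94.

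In 5 related lists of mitochondrial RNA and DNA genes and their regulators, 52 of 90 tested genes fell and 10 rose, against 33.9% lower and 36.3% higher over all tested genes (43.6% and 27.8% of protein-coding genes). By expression, 38.2% of tested genes were lower in the middle quintile, 53.5% in the next and 60.3% in the highest. The lists were not matched for expression, so their lower counts are not read as particular to them. With upper-quartile factors 37 were lower and 21 higher, and with genes of a mean count of at least 50, 43 and 17. Of 24 tested genes of mitochondrial RNA processing and stability, 14 fell and 3 rose, while 7 did not pass, and the list's median log2 fold change was -0.51; with upper-quartile factors 8 and at the higher count filter 6 were higher. Of the proteins that release tRNAs from the precursor, TRMT10C fell to 12.1 ± 2.39 CPM in 5-FU libraries, against 40.1 ± 7.41 CPM in control libraries (-1.73, SE 0.18). Its partner HSD17B10 fell to 27.8 ± 4.85 CPM, against 77.5 ± 7.01 CPM (-1.48, SE 0.15). KIAA0391, the nuclease that acts with both, did not pass (0.13, SE 0.17, edgeR adjusted p = 0.531), and the nuclease ELAC2 fell (-0.85, SE 0.14). KIAA0391 and ELAC2 were named with their values in view. GRSF1, a protein of mitochondrial RNA granules, fell to 70.5 ± 8.13 CPM in 5-FU libraries, against 186 ± 9.20 CPM in control libraries (-1.40, SE 0.12). MRPL12, a ribosomal protein reported to bind POLRMT, had the largest fall of the list (-2.50, SE 0.26), but 68.2% of its exonic bases are shared with another gene on its strand and its value is uncertain. The 3 that rose were MTERF2 (0.85, SE 0.16) and MTERF4 (0.58, SE 0.12), members of the family of mitochondrial termination factors, and FASTKD1 (0.58, SE 0.12), a FAST kinase domain protein. Exons of SNED1 on the opposite strand cover 51.0% of MTERF4. MTERF1 had no count in any library.

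Enzymes that modify mitochondrial RNA fell for 14 of 21 and rose for none, at a median of -0.43. Beside this, 33.9% of all tested genes were lower, and 38.2% to 60.3% in the quintiles from middle to highest expression. With upper-quartile factors 6 were lower and 2 higher, at a median of -0.07. MRM2, a methyltransferase of the large rRNA, fell by 1.36 on the log2 scale (SE 0.15) and the pseudouridine synthases RPUSD4 and RPUSD3 fell by 1.30 (SE 0.12) and 0.87 (SE 0.12). NSUN2, a cytosine methyltransferase that also acts on cytosolic tRNAs, fell by 0.99 (SE 0.13). Higher calls in this list also appeared with plain totals (1) and the higher count filter (2).

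Among 18 genes of mitochondrial DNA replication and maintenance, 11 fell, 4 rose and 3 (POLG, EXOG and DGUOK) did not pass, at a median of -0.64. Of all tested genes 33.9% were lower and 36.3% higher, and lower calls made up 53.5% and 60.3% in the upper expression quintiles. Scaled by upper-quartile factors, 8 of the list were lower and 5 higher. RNASEH1, which removes RNA from RNA:DNA hybrids, fell to 15.02 ± 0.886 CPM in 5-FU libraries, against 48.4 ± 7.78 CPM in control libraries (-1.69, SE 0.15). The nuclease and helicase DNA2 (-1.59, SE 0.18), the ligase LIG3 (-1.27, SE 0.12) and the single-strand binding protein SSBP1 (-1.25, SE 0.16) fell too; all of these but SSBP1 also work in the nucleus, and exons on the opposite strand cover 30.5% of LIG3. The 4 that rose were RRM2B, SLC25A36, POLG2 and TK2. RRM2B, the small ribonucleotide reductase subunit induced by p53, rose to 129 ± 4.99 CPM in 5-FU libraries, against 68.6 ± 2.58 CPM in control libraries (0.91, SE 0.11), and SLC25A36, a mitochondrial pyrimidine nucleotide carrier, rose to 305 ± 27.5 CPM, against 155 ± 14.1 CPM (0.98, SE 0.13). POLG2, the accessory subunit of the mitochondrial DNA polymerase, rose by 0.66 (SE 0.13), and TK2, the mitochondrial thymidine kinase, by 0.45 (SE 0.12). The call on TK2 was lost when genes of low count were kept (edgeR adjusted p = 0.108) and on FPKM without a filter (limma adjusted p = 0.0524), and 25.0% of its exonic bases are shared with other genes.

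Nuclear regulators of mitochondrial genes fell for 8 of 14, with 1 higher and 5 not passing, at a median of -0.62, beside 33.9% lower over all tested genes and 43.6% of protein-coding genes. Lower shares by expression quintile were 38.2% in the middle, 53.5% in the next and 60.3% in the highest. Without control replicate 2, 12 were lower. MYC (-1.64, SE 0.15), the zinc finger factor YY1 (-1.07, SE 0.11), the GABP subunit GABPB1 (-1.35, SE 0.17) and the deacetylase SIRT1 (-0.97, SE 0.13) fell. PPARGC1A, the coactivator PGC-1α, rose by 3.11 (SE 0.53), with counts of 31, 22 and 54 in 5-FU libraries, against 4, 8 and 1 in control libraries, a low level in both groups, and the gene dropped out at a mean count of at least 50. NRF1, PPARGC1B, PPRC1, CREB1 and SIRT3 did not pass. ESRRG was not tested.

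Mitochondrial double-stranded RNA is known to be sensed in the cytosol when PNPT1 is lost, so 14 genes of double-stranded RNA sensing and its interferon response were counted as well. Of 13 tested, 5 fell, 2 rose and 6 did not pass, at a median of -0.22. The lower share is near that of all tested genes (33.9%) and of protein-coding genes (43.6%). The higher share is below that of all tested genes (36.3%) and of protein-coding genes (27.8%). With 13 genes, and higher calls that changed with the scaling, the counts are not read as a result about these genes as a group. With upper-quartile factors 4 were higher and the median was 0.14, with plain totals 4 were higher at a median of -0.11, and at the higher count filter 4 were higher at a median of 0.03. OAS3 (-2.24, SE 0.22) and OAS1 (-1.41, SE 0.16), oligoadenylate synthetases that double-stranded RNA activates, fell, as did ADAR (-0.95, SE 0.12), the editor of double-stranded RNA, the kinase EIF2AK2 (-0.99, SE 0.13), which binds double-stranded RNA, and the interferon-induced IFIT1 (-0.99, SE 0.12). ISG15, an interferon-induced ubiquitin-like protein, rose by 0.997 (SE 0.16). EIF2AK2 and the genes that follow were chosen for mention with their values in view. The sensors IFIH1 (-0.22) and DDX58 (0.31) and the adaptor MAVS (-0.08) did not pass, and IFNB1 had too few counts to be tested.

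**Figure D4:**
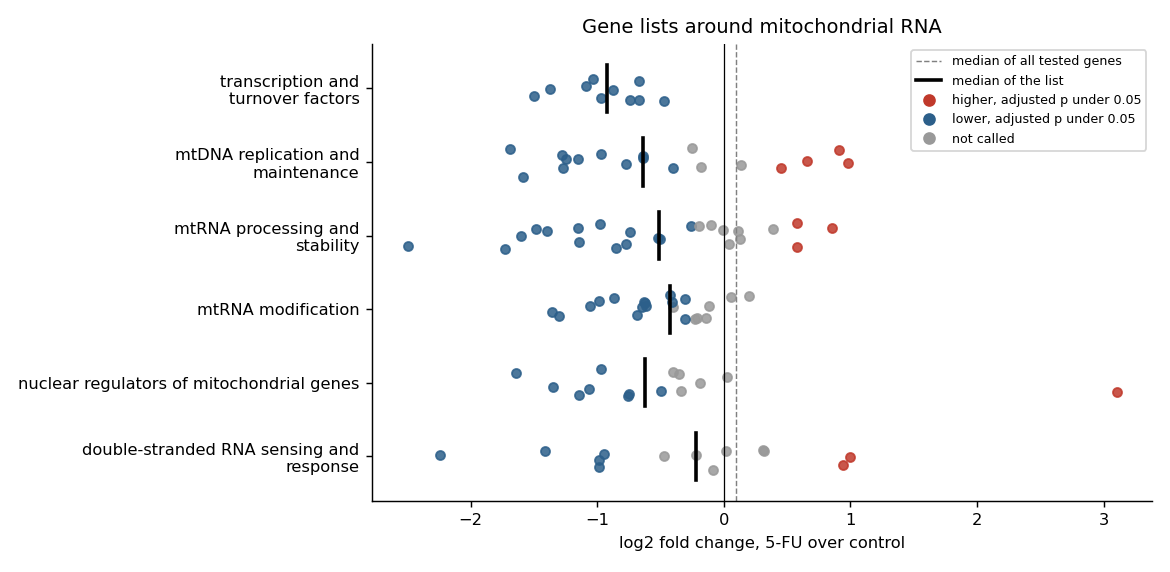
log2 fold change of 5-FU over control for each tested gene (1 point per gene, vertical position jittered) in the 10 factors and 5 related lists, with called genes in red (higher) or blue (lower), the list's median as a black bar and the median of all tested genes (0.09) dashed. The 10 factors all lie below 0, while each of the 5 related lists but that of RNA modification has called genes on both sides.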

How the data were processed

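Per the labels' protocols, TRIzol was used for extraction and the NEBNext Ultra RNA kit for library preparation. HISAT2 2.0.5, featureCounts 1.5.0-p3, DESeq2 1.16.1 and genome build GRCh38 are named, per the submitters' processing notes. The sources used here give no strand setting and no rule for multi-mapping reads. The table deposited by the authors gives raw counts for each gene, and all 58735 positions equalled GENCODE release 29. The FPKM that the authors deposited equal count over gene length and a constant per library, 1.07 to 1.16 times the count total in 5-FU and 0.892 to 0.986 times in control libraries.

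Groups were taken from the treatment label. Counts were fitted with edgeR 4.0.16 in R 4.3.3 (filterByExpr defaults with a minimum count of 10, TMM, group alone, Benjamini-Hochberg over 19771 tested genes); the threshold for a call was an adjusted p of 0.05. CPM use TMM effective library sizes, and the SE is the unshrunk coefficient over the square root of F. FPKM were tested with limma 3.58.1 after adding a pseudocount of 1 or 0.1 and taking log2, for genes reaching 1 FPKM in 3 or more libraries, scales that understate the change of low genes; counts also with DESeq2 1.42.0 and limma-voom. The fitting code was tested on simulated data. Replicate libraries were distinct: chi-square per gene between them was 6.26 to 15.5, where counting noise gives about 1. The members and lists were chosen with earlier results of these data known. Named beside the members were the mitochondrial mRNAs and rRNAs and, per list, up to 4 risers and 4 fallers of smallest p, and the most abundant gene of each marker list; 1 gene that this rule names is not reported here. With 3 against 3 an exact permutation test cannot go below 0.1.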

Additional observations from a re-analysis of the deposited data

How the results depend on the processing

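Of the 10 factors, 8 kept their call in all 18 alternatives (DESeq2 size factors, upper-quartile factors, plain totals, mitochondrial genes left out, a filter at a mean count of 50, no filter on low counts, DESeq2, limma-voom, the replicate block, 3 FPKM fits and the 6 fits without 1 library); POLRMT and MTPAP lost theirs as given above, and none changed sign. The largest adjusted p among the 8 was 0.0473, for TEFM with upper-quartile factors. The median over all tested genes was 0.45 with upper-quartile factors, 0.20 with plain totals and 0.63 without the count filter, against 0.09. With upper-quartile factors the split of calls was 9602 higher and 4614 lower, against 7171 and 6706; the count of lower factors was then 8, and their median -0.56. In the filtered FPKM fits 4320 (pseudocount 1) and 4268 (pseudocount 0.1) genes were higher and 7136 and 7119 lower, with medians of -0.20 and -0.24. On FPKM with no filter none of the 13 mitochondrial mRNAs passed limma, though their median was 2.11; the cause was not tested. Over the 5 related lists together, 10 genes were higher and 52 lower, against 21 and 37 with upper-quartile factors and 17 and 43 at a mean count of at least 50.

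With upper-quartile factors, higher calls were 8 in RNA processing (against 3), 2 in modification (against 0), 2 among regulators (against 1) and 4 in double-stranded RNA sensing (against 2), and lower calls in modification were 6 (against 14). At a mean count of at least 50 they were 6, 2, 0 and 4 higher in that order. With plain totals they were 1 in modification and 4 in sensing. PPARGC1A dropped out of the filtered FPKM fits, which left 0 higher regulators, and with no FPKM filter 1 sensing gene was higher. CD14 changed sign with upper-quartile factors (0.24) and at a mean count of at least 50 (0.13), never passing. The mitochondrial share difference kept its direction in FPKM, without rRNAs and without each library.

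The replicate numbers are given by the labels with no statement of what they share. Same-numbered libraries deviated from their group means with correlations of -0.11, -0.28 and 0.08, and unlike-numbered ones with -0.17 to 0.22. Deviations from a mean of 3 libraries are tied to each other, so these values cannot show whether same-numbered libraries shared a batch. With the replicate block 6863 genes were higher and 6380 lower, and all 10 factors still passed. Leaving out 1 library gave 6639 to 7274 higher and 6318 to 6830 lower genes. TEFM, with counts of 130 to 254, rests on the fewest reads of the 10.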
